A study of Xenopus laevis with 111 samples.

Results

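Sham surgery exposed the spinal cord of *X. laevis* tadpoles without cutting it, and its mRNA levels over the first 2 h were compared with those of animals collected at 0 h. All 10 sham libraries of 0.5 to 2 h from the series S1, S2 and S3 and all 5 libraries of 0 h from the same series were used, which is 15 of the 111 libraries of the study (105 of them in the time series). S1 and S2 each held sham libraries of 0.5, 1, 1.5 and 2 h and 2 libraries of 0 h. S3 held sham libraries of 1 and 2 h and 1 library of 0 h. Every animal was at NF stage 50, a stage at which a cut cord regenerates, and gave the cord caudal to the mid-thoracic level. The labels name no strain, transgene or drug treatment. Sham animals were anaesthetised with MS222, the dorsal skin and muscle were opened over the cord, and the cord was collected after the stated time. The 0 h animals are labelled uninjured, so that anaesthesia, incision and the hours spent after them cannot be told apart in this comparison. Each library was made from poly(A) RNA of a pool of cords. S1 and S2 came from the same fertilisation and S3 from another batch of animals. Since hours of a series and pools of the same animals serve as replicates, the p-values measure the spread between these pools. In the comparison over 0.5 to 2 h as a whole, that spread includes differences between the sham hours.

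A sham control carries everything in an operation except the lesion under study. Opening skin and muscle sets off a wound response in the tissue around the cord, and anaesthesia and handling act on the whole animal. In many vertebrate tissues, immediate early genes, whose transcription needs no new protein, rise within the first hour after such stimuli and fall soon after, and their products control later genes. *X. laevis* is allotetraploid and carries many genes as a pair of similar homeologs, L and S. The gene models of the deposited tables carry identifiers only. None of the 45099 models could be paired with an entry of the RefSeq gene table (44456 genes, assembly v10.1, 0 matches), so genes, pathways and cell type markers are not named, the dissected tissue could not be checked against its markers, and 4 models are given by identifier. A difference in a pooled tissue library is one of relative RNA amount, in which fewer cells of a type and less RNA per cell cannot be told apart.

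The expected count, in which RSEM assigns reads to each model and may assign a part of a read, totalled 9.96 to 19.3 M (mega) counts per library, and 11.8 to 13.9 M at 0 h. Of 39641 models with a count in any of the 15 libraries, 29926 had at least 5 counts in at least 3 libraries and were tested, and these held 99.95% of the counts. No pair of libraries was identical (largest Spearman correlation 0.991). The first 2 principal components, with 42.5% and 14.6% of the variance, separated the series. Once series means were removed, the S1 sham library of 0.5 h lay farthest from the others on the first component (20.8% of the remaining variance, score 75.8, next -46.3 for the first S1 library of 0 h and 39.6 for the S1 sham library of 1 h). Some of the results that rest on these libraries are also given without them.

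A small set of models differed between sham and 0 h animals, and most of it was higher after the operation. Of the 29926 models, 131 passed an adjusted p under 0.05 (0.438%) in edgeR's quasi-likelihood test with series as a block. Of these, 109 were higher in sham animals (0.364%) and 22 were lower (0.0735%). They are called raised and lowered models below. The raised models had a median log2 difference of 1.00 (0.32 to 5.37, median SE 0.17) and the lowered models one of -1.05 (-2.65 to -0.31, median SE 0.20), whereas the median over all tested models was -0.01. In size, 22 raised models rose at least 4-fold, 32 rose between 2- and 4-fold and 55 rose less than 2-fold, 26 of them less than 1.5-fold. Among the lowered models, 5 fell at least 4-fold, 7 fell between 2- and 4-fold and 10 fell less than 2-fold. Without adjustment, 3812 models had a p under 0.05, and of these 1684 were higher and 2128 lower.

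**Figure D1:**
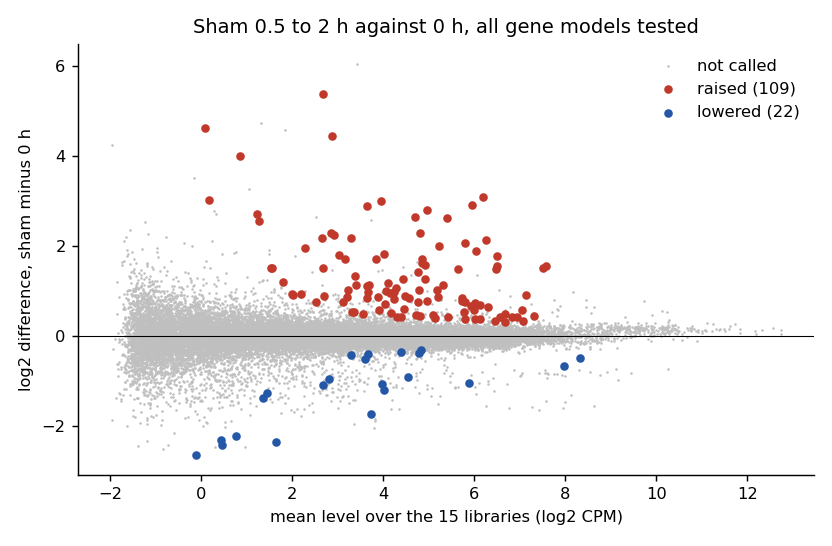
Each point is a gene model tested, with its mean level over the 15 libraries (log2 CPM, x axis) against its log2 difference between sham and 0 h animals (y axis). The 109 raised models (red) reach 5.37 and lie at middle levels, the 22 lowered models (blue) reach -2.65, and grey points did not pass the test.

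The raised models were somewhat better expressed at 0 h than the average model. Their mean TPM, a level per transcript length, had a median of 9.83 at 0 h and 25.7 in sham animals, against 6.70 and 6.25 for all tested models. The lowered models had a median of 6.84 TPM at 0 h and 3.91 TPM in sham animals. A level of at least 1 TPM at 0 h was reached by 103 of the 109 raised models (94.5%), 22 of the 22 lowered models and 86.1% of all tested models, and one of at least 10 TPM by 49.5%, 31.8% and 38.2%. Most raised models were thus detected before surgery. Their effective length, relative to the library, had a median of 0.79 for raised models, 1.33 for lowered models and 0.95 for all. RSEM divides reads that fit several models, and an expected count farther than 0.005 from a whole number shows such a division. In the median model, 13.3% of the counts were whole for the raised list, 40% for the lowered list and 13.3% for all. Many values here, as elsewhere in the data, thus include divided reads, and the models that share them were not identified.

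The raised models had the same direction in the 3 series. In 89 of the 109, the sham libraries of every series all lay above every 0 h library of that series, a pattern that 0.732% of all tested models had. In 13 of the 22 lowered models the sham libraries all lay below, as in 0.521% of all models. The sign was the same in 10 of 10 sham libraries for 103 raised and 16 lowered models (3.88% of all models in either direction). These libraries also chose the lists, so the counts are a description. In single libraries, the median difference of the raised models from 0 h of the same series lay between 0.61 (S2, 2 h) and 1.41 (S1, 1.5 h). At 2 h in S3 it was 0.99. Between 107 and 109 of the 109 models were above 0 in each of the 10 sham libraries. The lowered models differed more between series. Their median lay between -1.75 and -1.07 in the 4 S1 libraries, between -0.95 and -0.62 in the 4 S2 libraries, and was -0.35 and -0.18 in the 2 S3 libraries.

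**Figure D2:**
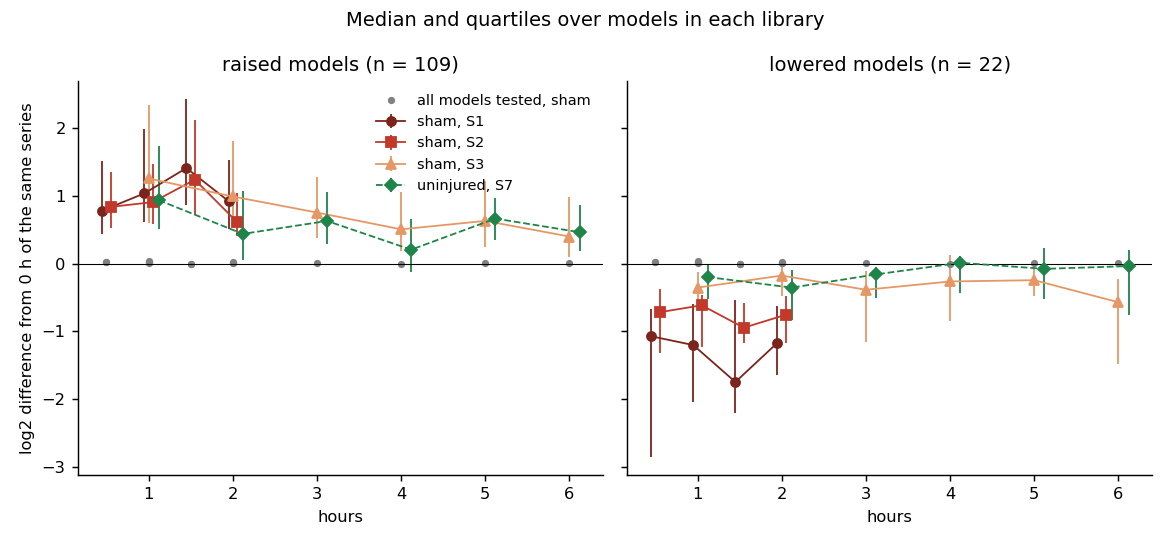
Median (symbol) and quartiles (bars) over the raised (left) and lowered (right) models of the log2 difference between a library and 0 h of its own series (y axis), by hour (x axis), for sham libraries of S1 to S3 and uninjured libraries of S7. Grey points are the medians over all models tested and stay near 0, sham medians of the raised models lie between 0.61 and 1.41 up to 2 h, and uninjured medians at 1 and 2 h are 0.94 and 0.44.

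Lists made in some series were then read in the others, whose libraries had no part in the tests that made them. The filter on counts used all 15 libraries, S1 and S2 shared a fertilisation, and S3 held 1 library of 0 h. With S1 and S2 alone, 73 of the 29926 models were higher and 55 lower in sham animals. In S3, 68 of the 73 were higher as well, with a median log2 difference of 0.96, against 47.4% of all models. Of the 55 lower models, 33 were lower in S3, and their median there was -0.14 against -1.59 in S1 and S2. With S1 alone, 45 models passed (0.15%), 19 higher (0.0635%) and 26 lower (0.0869%). Of the 19, 17 were higher in S2 and 18 in S3, with medians of 1.04 and 1.15. Of the 26, 17 were lower in S2 and 9 in S3, with medians of -0.19 and 0.17. With S2 alone, 10 models passed (0.0334%), 4 higher (0.0134%) and 6 lower (0.02%). All 4 were higher in S1 and in S3, and of the 6 that were lower, 5 were lower in S1 and 6 in S3. As a background to these counts, 48.4% of all models were higher in S1, 50.2% in S2 and 47.4% in S3.

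The 0 h libraries of S1 differed for many lowered models. In S1, the second 0 h library was at least 2-fold above the first for 6 of the 22 lowered models and at least 2-fold below it for 4, whereas this held for 171 and 86 of all 19117 models of at least 5 CPM. Among raised models, 5 were at least 2-fold higher and 1 was lower in the second S1 library. In S2, 1 raised model was at least 2-fold higher and 12 were lower in the second 0 h library, against 18 and 169 of all 19117 models. Of the 22 lowered models, 0 were at least 2-fold higher and 2 were lower in that library. The lists were not limited to models of at least 5 CPM, and the mean CPM of the lowered models had a lower quartile of 2.70. The lists and this background are thus not matched for level. The number of lowered models moved when single libraries, of 0 h or of sham animals, were left out. Without the first S1 library of 0 h, 142 of the 29926 models tested were higher and 178 lower. Without the second, 73 were higher and 13 lower. Without the second S2 library of 0 h the counts were 66 and 11, without the first S2 library 93 and 14, and without the S3 library of 0 h 72 and 45. Among sham libraries, leaving out that of S2 at 1.5 h gave 44 lower models and leaving out that of S3 at 2 h gave 79. Of the 109 raised models, 65 to 105 still passed when any 1 of the 15 libraries was left out, and of the 22 lowered models 7 to 21.

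The largest rise among models of at least 5 CPM was that of Xelaev18042368m.g. In CPM, counts scaled to a common library total of 1 M, its level at 0 h was 0.0775 and 0.181 in S1, 0.275 and 0.282 in S2, and 0.215 in S3, which rests on 1 to 4 counts per library. In S1 it was 0.492 at 0.5 h, 6.88 at 1 h, 31.5 at 1.5 h and 13.9 at 2 h. In S2 it was 0.358, 6.56, 13.5 and 3.25 at the same hours, and in S3 it was 4.18 at 1 h and 14.4 at 2 h. Within S1 to S3, every sham library was above every 0 h library, narrowly at 0.5 h and widely from 1 h on. Scaled over a larger set of libraries, 0 h was at 0.243, 1.49 and 0.869 CPM in S4, S5 and S6. The sham libraries of 0.5 h were at 0.510 CPM (S1) and 0.367 CPM (S2) on that scale. The means were 9.51 ± 9.38 CPM in sham animals (SD, n = 10) and 0.206 ± 0.083 CPM at 0 h (SD, n = 5), and the fitted log2 difference was 5.37 (SE 1.00, edgeR adjusted p = 0.0164). By hour it was 0.99 at 0.5 h (adjusted p = 0.756), 4.74 at 1 h (adjusted p = 0.000208), 6.62 at 1.5 h (adjusted p = 1.6e-06) and 5.44 at 2 h (adjusted p = 2.1e-05).

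Xelaev18039067m.g had nearly the same course. Its levels at 0 h were 0.775 and 0.271 CPM in S1, 0.757 and 0.422 CPM in S2 and 0.0717 CPM in S3. In S1 it was at 1.77, 6.55, 34.1 and 14.4 CPM at 0.5, 1, 1.5 and 2 h. In S2 it was at 0.627, 6.70, 14.8 and 6.44 CPM, and in S3 at 4.47 and 17.7 CPM at 1 and 2 h. Within S1 to S3, the groups overlapped only at 0.5 h in S2, and all sham libraries of 1 h and later stood clear of 0 h. Scaled over a larger set of libraries, the 0 h libraries of S4, S5 and S6 were at 0.243, 4.75 and 1.59 CPM. That of S5 was above the S3 sham library of 1 h, which was at 4.60 CPM on that scale. The means were 10.8 ± 10.0 CPM in sham animals (SD, n = 10) and 0.459 ± 0.306 CPM at 0 h (SD, n = 5), with a log2 difference of 4.45 (SE 0.82, edgeR adjusted p = 0.0149). In both series with a library of 1.5 h, these 2 models were highest at that hour.

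Among models that fell, Xelaev18034760m.g was lower in all 3 series, but from very different levels. At 0 h it was at 23.2 and 94.9 CPM in S1, at 6.33 and 6.20 CPM in S2 and at 4.16 CPM in S3. In sham animals it was at 7.49, 14.8, 11.7 and 19.3 CPM in S1 at 0.5, 1, 1.5 and 2 h, at 2.24, 2.05, 2.54 and 1.56 CPM in S2, and at 2.04 and 3.61 CPM in S3. Within each series no sham library reached a 0 h library, whereas across series the groups overlapped, and S1 sham libraries were above the 0 h libraries of S2 and S3. The log2 difference was -1.74 (SE 0.29, edgeR adjusted p = 0.00566), and without the S1 library at 94.9 CPM it was -1.09 (adjusted p = 0.0394). It passed at no single hour (edgeR adjusted p = 0.113, 0.18, 0.142 and 0.406 at 0.5, 1, 1.5 and 2 h). None of its expected counts was whole by the same tolerance (0% of 15), so that a similar copy may share its reads.

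Xelaev18024161m.g was the second model that fell. It was at 15.7 and 59.9 CPM at 0 h in S1, at 9.22 and 13.1 CPM in S2 and at 28.3 CPM in S3. In sham animals it was at 17.4, 14.4, 8.36 and 12.3 CPM in S1, at 5.73, 3.60, 5.15 and 4.03 CPM in S2, and at 15.4 and 28.0 CPM in S3. The sham libraries overlapped the 0 h libraries in S1, and the S3 library of 2 h lay just under 0 h. The log2 difference was -1.19 (SE 0.25, edgeR adjusted p = 0.0432). Without the S1 library at 59.9 CPM it was -0.74 (adjusted p = 0.214). This model also passed at no single hour (edgeR adjusted p = 0.458, 0.227, 0.24 and 0.526 at 0.5, 1, 1.5 and 2 h).

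**Figure D3:**
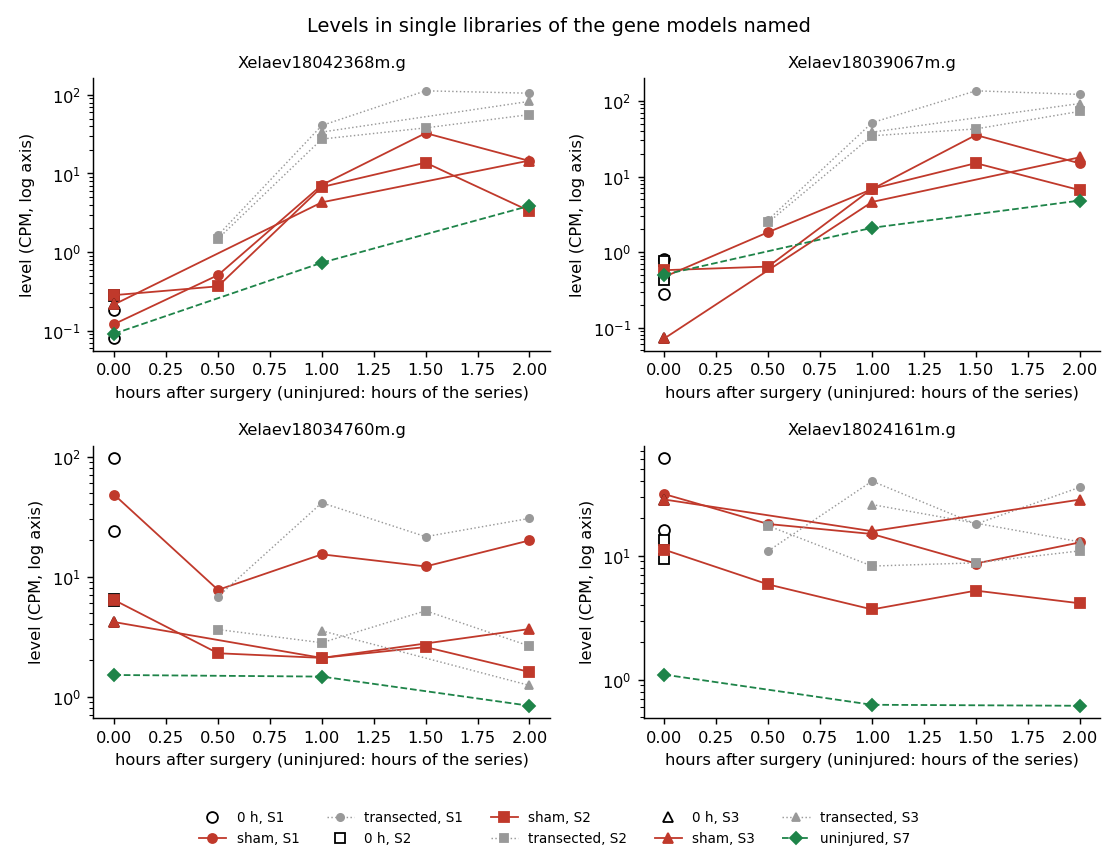
Level in each library (CPM, log axis) of the 4 models named, by hour. All levels drawn were scaled over a larger set of libraries than most sham and 0 h levels in the text. Open symbols are single 0 h libraries, and the first red symbol of each line is the geometric mean of the 0 h libraries of that series. Red lines are sham, grey lines transected and the green line uninjured animals. The top models climb from under 1 CPM to their highest sham level at 1.5 h in S1, and the bottom models start from levels that differ between series.

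The hours were also compared with 0 h one by one in a single fit. At 0.5 h, 67 models were higher (0.224%) and 12 lower (0.0401%), 79 in all (0.264%). At 1 h, 95 were higher (0.317%) and 7 lower (0.0234%), 102 in all (0.341%). At 1.5 h, 269 were higher (0.899%) and 12 lower (0.0401%), 281 in all (0.939%). At 2 h, 57 were higher and 0 lower (57, 0.19%), although 1314 were lower at an unadjusted p under 0.05. The hours of 1 and 2 h rest on 3 libraries each and those of 0.5 and 1.5 h on 2 libraries each. The count at 0.5 h fell from 79 to 1 without the S1 library that stands apart and to 47 without the S2 library of that hour. At 1.5 h it was 89 without the S1 library and 150 without the S2 library. At 1 h it was 61 without the S2 library, and at 2 h it was 24, 27 and 36 without the S1 sham library, the S3 sham library and the S3 library of 0 h.

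**Figure D4:**
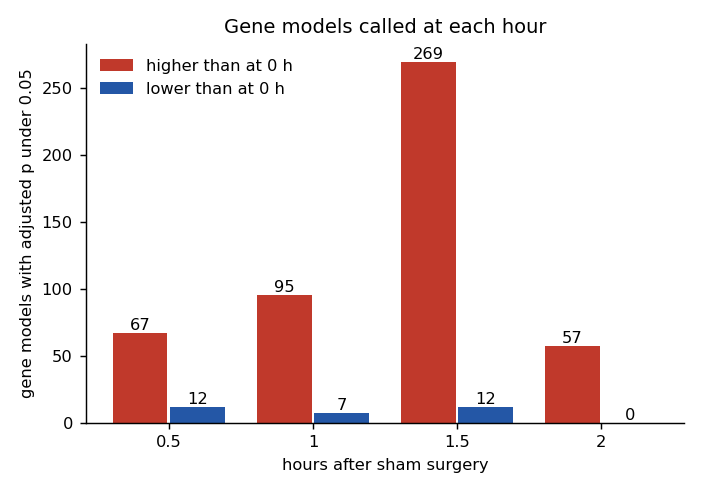
Number of gene models (y axis) with an adjusted p under 0.05 at each hour after sham surgery (x axis), higher (red) or lower (blue) than at 0 h. The bar of higher models at 1.5 h (269) is above those at 0.5 h (67), 1 h (95) and 2 h (57), with 2 libraries behind the bars at 0.5 and 1.5 h and 3 behind the others.

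The raised models had their largest difference mostly at 1.5 h. Their median log2 difference was 0.84 at 0.5 h, 1.00 at 1 h, 1.31 at 1.5 h and 0.79 at 2 h. Of the 109, 12 were highest at 0.5 h, 10 at 1 h, 85 at 1.5 h and 2 at 2 h, against 8628, 5997, 9030 and 6271 of all tested models. In single libraries, 71 raised models were highest at 1.5 h in S1 (65.1%, against 23.8% of all models) and 78 in S2 (71.6%, against 31.2% of all). Differences of at least 2-fold were held by 45 raised models at 0.5 h, 57 at 1 h, 72 at 1.5 h and 44 at 2 h. Over all 29926 models, 475, 343, 754 and 320 rose at least 2-fold at these hours. The lowered models had medians between -1.35 (1.5 h) and -0.92 (0.5 h), and their lowest hour was not the same in S1 (8 of 22 at 0.5 h) and S2 (8 of 22 at 2 h). S3 had no library of 0.5 or 1.5 h.

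The change among the sham hours was tested over the 4 hours together, and few models passed. They were 11 (0.0368%), of which 9 were higher at 2 h than at 0.5 h. The raised list held 6 of them, 5 higher and 1 lower at 2 h than at 0.5 h, the lowered list 0, and 5 had not passed the comparison of sham with 0 h. Xelaev18042368m.g and Xelaev18039067m.g were among the 6, each with an edgeR adjusted p of 0.0132 and with a difference between 2 h and 0.5 h of 4.45 (SE 0.65) and 3.41 (SE 0.53) on the log2 scale. Without the S1 library of 0.5 h or without the S1 library of 1.5 h, 0 models passed. Without the S1 library of 2 h 4 did, without the 1 h library of S1 or S2 6 did, and without the 1 h library of S3 or the second S1 library of 0 h 18 and 19 did.

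The 0 h animals were not kept for the hours that the sham animals were, so the lists were read in uninjured animals, which were collected hourly without surgery. These animals of S7 formed a separate series with 1 library per hour and share no library with S1 to S3. Whether their batch differed from those of S1 to S3 is not stated. Their libraries of 0, 1 and 2 h held 21.1, 19.6 and 21.2 M counts. The raised models were higher at 1 and 2 h than at 0 h in uninjured animals as well. In the fit, 104 of the 109 were higher, 44 of them at least 2-fold, with a median log2 difference of 0.78 against 0.00 for all models. As the mean of the libraries of 1 and 2 h, 103 of 109 lay above 0, compared with 46.5% of all tested models. By that mean, 37 of the 109 were at least 2-fold higher, against 686 of all 29926 models. All 22 models that rose at least 4-fold in sham animals were at least 2-fold higher in uninjured animals too (median log2 difference 2.38, lowest 1.27). Of the 47 raised models with at least a 2-fold difference in sham animals at 1 and 2 h, 4 were under 1.5-fold in uninjured animals. The lowered models had a median of -0.26 in uninjured animals, and 18 of 22 were lower. In these uninjured animals alone, 0 models passed the edgeR test of 1 and 2 h against 0 h, in which the spread comes mainly from S1 to S3. At an unadjusted p under 0.05 there were 1212, a smaller share of all models than that threshold passes by chance. Of these, 802 were higher, and 58 of the 802 were raised models.

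**Figure D5:**
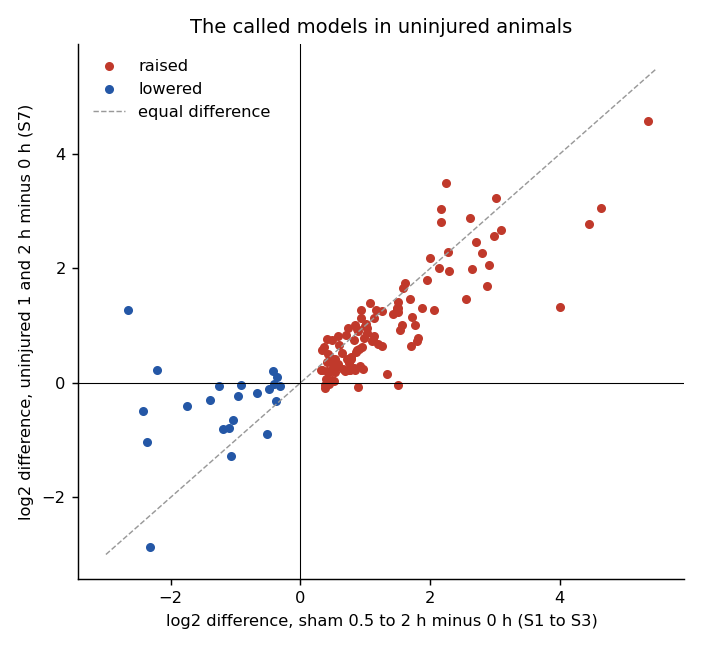
Each point is a raised (red) or lowered (blue) model, with its log2 difference between sham and 0 h animals of S1 to S3 (x axis) against that between 1 and 2 h and 0 h in uninjured animals of S7 (y axis), and the dashed line marks equal differences. Of the raised models 104 of 109 lie above 0 on the y axis and 18 of 22 lowered models lie below 0.

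The change in sham animals was then tested against that in uninjured animals over 1 and 2 h. No model passed (0 of 29926, 0%, edgeR). An unadjusted p under 0.05 was held by 1256, a smaller share of the models than that threshold passes by chance. Of these, 375 had the more positive change in sham animals. The same test with DESeq2 called 2 models, both with the more negative change in sham animals. Without the uninjured library of 2 h, 54 models passed, 43 more positive and 11 more negative in sham animals. The lists were chosen for their change in these sham and 0 h libraries, and S7 had no part in the choice, so a larger estimate in sham animals follows in part from the choice and is given as a description. Of the raised models, 78 of 109 had the larger change in sham animals (median of the difference 0.22 log2, from -1.42 to 2.10), and of the lowered models 19 of 22 had the more negative one (median -0.48), against a median of -0.01 over all models. At an unadjusted p under 0.05, 6 raised models were more positive and 1 more negative, and 4 lowered models were more negative. A missed threshold does not show that the changes were equal, since the same test called 131 of 200 changed models in simulated counts. These 200 were drawn only from models above a floor of mean counts, and their spread was taken from S1 to S3. The share called need not hold for the data and may be lower there.

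The models named show how wide these differences are. Xelaev18042368m.g had 2, 14 and 88 counts in uninjured animals at 0, 1 and 2 h, or 0.0916, 0.733 and 3.88 CPM. Its change in sham animals exceeded that in uninjured animals by 0.55 log2, with an approximate 95% interval of -5.53 to 6.63. Xelaev18039067m.g was at 0.504, 2.09 and 4.80 CPM in uninjured animals, and its change was larger in sham animals by 1.46 log2 (-1.44 to 4.37). Xelaev18034760m.g was at 1.51, 1.47 and 0.837 CPM, and the difference of the changes was -1.15 log2 (-3.27 to 0.97). Xelaev18024161m.g had 24, 12 and 14 counts in uninjured animals at these hours, or 0.628 and 0.617 CPM at 1 and 2 h, far under its levels in S1 to S3, and the difference was -0.40 log2 (-2.90 to 2.09). Each of these intervals includes 0 as well as differences of more than 2-fold.

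At later hours the raised models lay closer to 0 h in S3, and their level differed between series. In S3, their median over the sham libraries was 1.08 at 1 and 2 h (109 of 109 above 0) and 0.56 at 3 to 6 h (105 of 109 above 0, 33 at least 2-fold). Library by library it was 0.75, 0.50, 0.63 and 0.40 at 3, 4, 5 and 6 h. In uninjured animals of S7 it was 0.94 at 1 h, 0.44 at 2 h, 0.63 at 3 h, 0.20 at 4 h, 0.66 at 5 h and 0.46 at 6 h, so that the uninjured libraries stayed above their own 0 h library, which enters each of these values. In sham animals of the other series, each against its own single library of 0 h, the medians lay between 0.44 and 0.71 in S4 (6 to 12 h), between 0.10 and 0.38 in S5 (10 to 18 h) and between -0.31 and -0.07 in S6 (16 to 21 h). The series were not alike at the same hour. At 6 h the median was 0.40 in S3 and 0.71 in S4, and at 16, 17 and 18 h it was 0.38, 0.31 and 0.12 in S5 and -0.11, -0.20 and -0.07 in S6. The lowered models had medians of -0.36 at 1 and 2 h and -0.37 at 3 to 6 h in S3 and of -0.07 in uninjured animals at 3 to 6 h. Their medians in single sham libraries lay between -0.04 and 0.65 in S4, between -0.50 and 0.42 in S5 and between -0.24 and 0.14 in S6. These later values were compared with no test.

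In transected animals of S1 to S3, whose cord was cut after the same opening of skin and muscle, the raised models had larger differences from the same 0 h libraries. Their median over 0.5 to 2 h was 1.67 in transected and 0.97 in sham animals. By hour it was 1.24, 1.63, 2.05 and 1.80 in transected animals and 0.86, 1.02, 1.31 and 0.85 in sham animals at 0.5, 1, 1.5 and 2 h. The lowered models had medians of -0.34 in transected and -1.02 in sham animals. Xelaev18042368m.g reached 113 CPM in transected animals of S1 at 1.5 h and 105 CPM at 2 h, and Xelaev18039067m.g reached 136 and 122 CPM. These CPM were scaled over a larger set of libraries than the sham levels given above. On that scale the 2 models were at 32.6 and 35.4 CPM in the S1 sham library of 1.5 h. The lists were chosen in the sham libraries and both comparisons share their 0 h libraries, so the values are set side by side only.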

How the data were processed

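The authors sequenced TruSeq libraries of pooled cords, mapped reads with Bowtie and RSEM to version 9.1 of the model transcriptome (CASAVA 1.7 is also named in the submitters' processing notes), and deposited an unnormalised expected count and a TPM per gene model. Expected counts were rounded to whole numbers. Models with at least 5 counts in at least 3 of the 15 libraries were fitted in R 4.3.3 with edgeR 4.0.16 (TMM, quasi-likelihood F-test, series as a block, Benjamini-Hochberg adjustment over 29926 models, adjusted p under 0.05). The SE is the log2 difference divided by the square root of F. CPM was scaled with TMM factors, over the 15 libraries for the sham and 0 h levels of S1 to S3 in the text unless another scale is named. Transected and uninjured CPM, and the 0 h CPM of S4 to S6, were scaled over a larger set of libraries. Log2 CPM used a prior count of 1. limma 3.58.1 (pseudocount of 1 TPM) and DESeq2 1.42.0 were alternatives. Pairing by hour does not apply, and the series is the block. The tests were checked on simulated counts with 200 changed models, drawn only from models above a floor of mean counts. The test of sham against 0 h called 199 of them and 6 unchanged models. That of the change among hours called 182 and 16. That of sham against uninjured animals called 131 and 5, and of the 131, 35 had a 2-fold and 96 a 4-fold change. The members of the comparison and the planned gene lists were chosen with earlier results of these data known. The lists need symbols and were not used. The models named are the 2 that rose and the 2 that fell most among those with an adjusted p under 0.05, a mean of at least 5 CPM and the same sign in all 10 sham libraries. Python 3.11.15 and matplotlib 3.10.9 drew the plots. The Torin1 experiment was not used here.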

Additional observations from a re-analysis of the deposited data

Results flagged for a closer look

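Of 12 sets of values examined for a library far from the others, 3 held one. Chance finds one in about 5% of sets of like libraries. The 3 sets pooled libraries of several series, and the sham sets also pooled hours, so this rate need not hold for them. Among sham libraries, Xelaev18042368m.g at 31.5 CPM and Xelaev18039067m.g at 34.1 CPM stood out in the same library, S1 at 1.5 h, whereas the next sham libraries were at 14.4 and 17.7 CPM. At 0 h, Xelaev18034760m.g stood out at 94.9 CPM in 1 S1 library, with 23.2 CPM in the other. Xelaev18042368m.g and Xelaev18039067m.g also differed between the sham hours (edgeR adjusted p = 0.0132 each). They were higher at 2 h than at 0.5 h in both S1 and S2. Whether these models share reads was not tested, so their results may not be independent.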

How the results depend on the processing

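With DESeq2's Wald test 382 models passed between sham and 0 h (252 higher, 130 lower), and without a filter on low counts 381 (229 and 152). Fewer passed with limma on log2(TPM + 1) (34, 31 and 3), with an added 2-fold limit (66, 54 and 12), without series 2 (40, 36 and 4) and with sham libraries of 1 and 2 h only (82, 74 and 8). Without series 3, 55 were lower. With no replicate block, that is without the pairing of sham and 0 h libraries by series, 24 passed (24 higher, 0 lower), and by hour 0, 21, 42 and 16 at 0.5, 1, 1.5 and 2 h, with 0 for the change among hours. With series 1 and 2 only, 61 passed at 1 h and 28 at 2 h. A linear slope over the sham hours called 1 model. Leaving out each library in turn gave 77 to 320 models between sham and 0 h (66 to 143 higher, 11 to 178 lower), and without the S1 sham library of 0.5 h 143 and 28. By hour these ranges were 1 to 94, 61 to 123, 89 to 283 and 24 to 79, with 0 to 19 for the change among hours and 0 to 54 for sham against uninjured animals. That last difference could not be fitted without the uninjured 0 h library. DESeq2's 2 calls there were an alternative chosen after seeing the data. None of the 4 models named reversed its direction in 25 alternatives each. These models were named for the same sign in every sham library, and the alternatives reuse those libraries. The lack of reversals thus follows largely from the choice and is no separate check. Xelaev18042368m.g and Xelaev18039067m.g missed the threshold in 7 each, Xelaev18034760m.g in 4 and Xelaev18024161m.g in 16. The cause of these shifts was not tested. Levels near 0.2 CPM at 0 h rest on few counts, so the size of the largest folds is imprecise.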
